A study of Mus musculus with 8 samples.

Results

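Irf4, Prdm1, Xbp1 and Ell2 are regulators that take an activated B cell to the antibody-secreting plasma cell state. These 4 of the 18193 genes measured were matched by gene symbol and were proposed with earlier results of these data known, and 9 of the 45037 probe sets tested carry their symbols: 4 for Xbp1, 2 each for Irf4 and Ell2 and 1 for Prdm1. RNA came from mouse bone marrow cells sorted as Sca1+Lin- (bearing the stem cell surface antigen Sca1 and lacking antigens of mature lineages). It was profiled on 5 arrays from Sca1-MALT1 transgenic mice and 3 arrays from wild-type (WT) mice. By its name the transgene joins the Sca1 promoter to MALT1, the scaffold and protease that passes signals of antigen receptors on to NF-kB. The labels give no strain, age or sex, and do not say which species or part of MALT1 the transgene holds or whether each array is a separate animal, so each p-value reflects only how far these samples spread, and that spread may be technical.

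In a B cell that meets antigen, the transcription factor IRF4 accumulates and, at a high level, favours the plasma cell fate. It acts with Blimp-1, the repressor encoded by Prdm1, which shuts down the B cell programme. During the unfolded protein response the sensor IRE1, encoded by Ern1, splices the Xbp1 messenger RNA outside the nucleus, and the XBP1 protein made from the spliced form enlarges the secretory apparatus. ELL2, an elongation factor of RNA polymerase II, favours the early polyadenylation site of the immunoglobulin heavy chain transcript, which yields the secreted form of the antibody. Probe positions were not used here, so spliced and unspliced Xbp1 are not told apart.

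The stretches of 250 bases upstream of the annotated starts are shown for 3 of the genes because NF-kB is the pathway that MALT1 serves. Capitals mark matches on either strand to a loose NF-kB motif, GGG and CC with any 5 bases between them, and to CCACG, the core of the ER stress response element. Matches can overlap, and an overlapping run stands as 1 block of capitals.
Prdm1, chr10:44458749-44458998, minus strand: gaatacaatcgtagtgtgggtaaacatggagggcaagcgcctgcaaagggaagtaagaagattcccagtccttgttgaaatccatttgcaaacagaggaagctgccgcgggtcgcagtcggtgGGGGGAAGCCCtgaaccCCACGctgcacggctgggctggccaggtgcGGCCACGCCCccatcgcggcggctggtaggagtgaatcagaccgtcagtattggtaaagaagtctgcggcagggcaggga
Irf4, chr13:30748983-30749232, plus strand: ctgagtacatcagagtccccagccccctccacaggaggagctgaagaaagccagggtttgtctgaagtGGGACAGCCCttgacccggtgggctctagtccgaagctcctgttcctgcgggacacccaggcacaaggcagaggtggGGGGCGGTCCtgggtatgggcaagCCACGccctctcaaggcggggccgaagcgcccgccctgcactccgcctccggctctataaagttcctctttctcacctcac
Ell2, chr13:75707234-75707483, plus strand: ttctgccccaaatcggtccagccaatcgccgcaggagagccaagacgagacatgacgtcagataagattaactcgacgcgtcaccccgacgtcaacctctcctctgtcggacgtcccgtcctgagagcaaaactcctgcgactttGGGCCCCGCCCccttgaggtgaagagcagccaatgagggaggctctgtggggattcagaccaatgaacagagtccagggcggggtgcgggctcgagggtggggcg
The sequences are RefSeq's on build GRCm38.p6, run 5′ to 3′ toward the gene, and all 4 genes had an entry. The NF-kB letters matched 4 times at Prdm1, 3 times at Irf4 and 2 times at Ell2, counting each strand, and did not occur in the same window of Xbp1 (chr11:5520391-5520640, plus strand). Of 32851 promoters of this length, 45.8% hold them. CCACG occurred 2 times at Prdm1, where 1 match lies inside an NF-kB match, and once at Irf4, and 28.3% of promoters hold it. Both strands of all 4 windows were also searched for the full ER stress element (CCAAT, any 9 bases, CCACG), for TGACGTGG (unfolded protein response element) and for GAAAGT (core of the Blimp-1 motif). The interferon-stimulated response element (GAAA, any 2 bases, GAAA) and the ETS-IRF composite element (GGAA, any 2 bases, GAAA) were searched as well. These letters were in none of the 4 windows, and between 0.113% and 12.3% of all promoters hold them. The Prdm1 start used here lies inside the annotated span of the gene (chr10:44437174-44528558).

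Values are log2 RMA signals (robust multi-array average, computed by the authors), which have no detection call, and array medians lay between 6.40 and 6.48. Arrays correlated at r of 0.956 to 0.983 across genes. Sca1-MALT1 replicates 2 and 4 had Xist signals of 13.09 and 12.46, against 6.20 to 6.58 on the other Sca1-MALT1 arrays and on the WT arrays. In the sorted cells, markers of stem and progenitor cells averaged 8.07 to 10.13 on Sca1-MALT1 arrays and 9.35 to 11.22 on WT arrays, and for the Sca1 gene, Ly6a, no probe set listed one gene alone. Genes that a lineage-negative gate should remove also gave high signals, such as the B cell antigen gene Ms4a1 at 11.50 ± 1.0 (SD, n = 5) in Sca1-MALT1 and 12.55 ± 0.37 (n = 3) in WT cells. In bulk RNA, more cells of a type and more RNA per cell cannot be told apart, and this holds for every difference given here.

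The comparison of the genotypes asks how the transgene changes expression in this fraction. All 4 regulators had higher mean signals in Sca1-MALT1 cells, as did 50.7% of all genes, by 1.32 to 2.76 on the log2 scale, and none passed the adjusted threshold of 0.05 in limma's test. Among all genes 0.0879% passed that threshold (0.044% as higher). The 4 genes had unadjusted p-values under 0.05 with higher means, as did 5.69% of all genes (10.2% in either direction), and for 3 of them every Sca1-MALT1 array lay above every WT array, as in 4.27% of all genes. Their median difference was 1.78, beside 0.0040 over all genes. All 9 probe sets had a higher mean in Sca1-MALT1, as did 48.4% of all probe sets, and 5 of the 9 had groups that did not overlap, beside 3.68% of all probe sets. Of the 9, 7 had an unadjusted p under 0.05 with a higher mean (4.98% of all) and 0 passed after adjustment over all probe sets (0.0355% of all passed as higher).

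**Figure D1:**
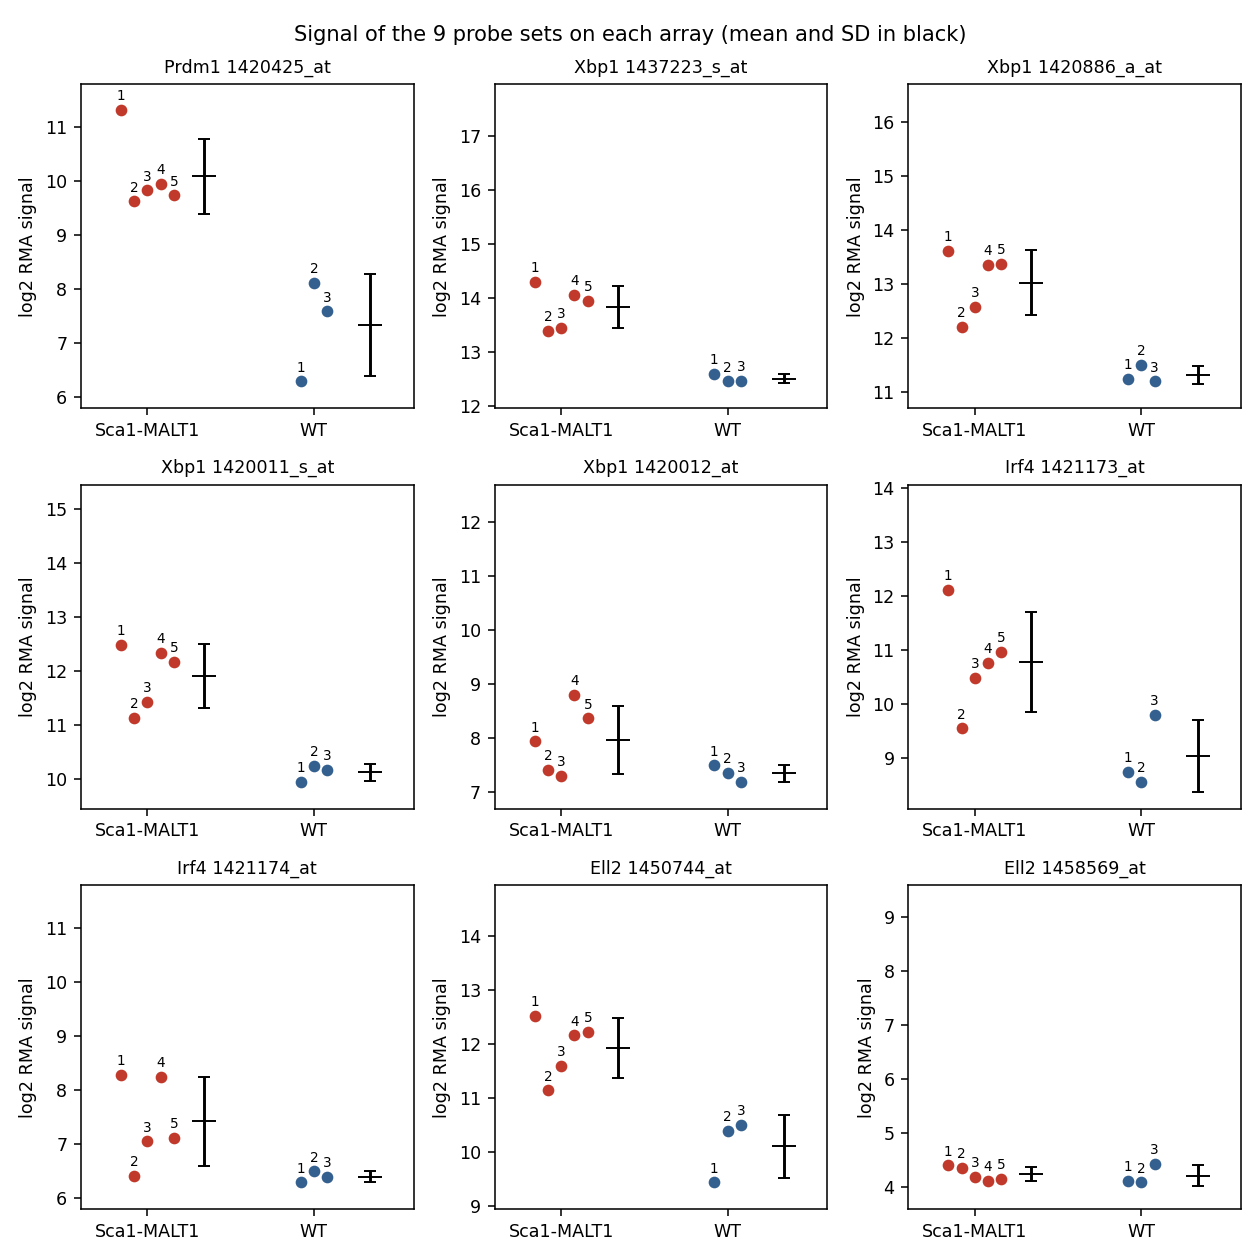
Log2 RMA signal of each of the 9 probe sets on the 5 Sca1-MALT1 arrays (red) and the 3 WT arrays (blue), numbered by replicate, with mean and SD in black and the same axis span in every panel. Prdm1, Ell2 1450744_at and 3 of the 4 Xbp1 probe sets show no overlap between the groups, and Sca1-MALT1 replicate 1 is the highest array in 7 panels.

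Irf4, the factor that starts the programme, had the least separated groups of the 4. Its brighter probe set, 1421173_at, read 12.11, 9.54, 10.47, 10.75 and 10.96 on Sca1-MALT1 replicates 1 to 5, against 8.73, 8.55 and 9.79 on WT replicates 1 to 3. Sca1-MALT1 replicate 1 was the highest, and replicate 2 lay below WT replicate 3, so the groups overlapped by that pair. The means were 10.77 ± 0.93 (SD, n = 5) and 9.03 ± 0.67 (SD, n = 3). The log2 difference was 1.74 (SE 0.53, 95% interval 0.52 to 2.96), a 3.35-fold higher signal in Sca1-MALT1 (1.44 to 7.78), with adjusted p = 0.347 in limma's test. Over the 56 ways to split the arrays 5 to 3, a two-sided exact permutation test gave p = 0.0536, where the smallest possible value is 0.0179.

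The dimmer Irf4 probe set, 1421174_at, gave 8.29, 6.42, 7.06, 8.25 and 7.12 on Sca1-MALT1 replicates 1 to 5, against 6.30, 6.5 and 6.40 on the WT arrays. The WT values lie near the array medians, and the values carry no measure of background. Replicates 1 and 4 were more than a log2 unit above the rest, and replicate 2 again lay within the WT range. The difference was 1.03 (SE 0.42, adjusted p = 0.509 in limma's test over all probe sets, exact permutation p = 0.0714).

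Prdm1, which encodes Blimp-1, had the largest difference of the 4 genes. Its single probe set, 1420425_at, read 11.31, 9.62, 9.83, 9.94 and 9.73 on Sca1-MALT1 replicates 1 to 5, against 6.29, 8.12 and 7.59 on WT replicates 1 to 3. The lowest Sca1-MALT1 array was 1.51 above the highest WT array. Replicates 2 to 5 lay close together and replicate 1 stood above them, while WT replicate 1 was the lowest array. With means of 10.09 ± 0.70 (SD, n = 5) and 7.33 ± 0.94 (SD, n = 3), the difference was 2.76 (SE 0.49, 95% interval 1.63 to 3.89), or 6.77-fold (3.09 to 14.8). It had adjusted p = 0.127 in limma's test and exact permutation p = 0.0179, the smallest possible. Only 23 genes, 0.126% of those measured, had a larger positive difference.

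Xbp1, the factor of the secretory programme, was read by 4 probe sets, of which 3 differed with no overlap. The brightest, 1437223_s_at, gave 14.30, 13.39, 13.45, 14.05 and 13.95 on Sca1-MALT1 replicates 1 to 5, against 12.60, 12.45 and 12.47 on the WT arrays. The WT arrays were within 0.15 of one another, and each Sca1-MALT1 array was at least 0.79 above them. The means were 13.83 ± 0.39 (SD, n = 5) and 12.51 ± 0.08 (SD, n = 3). The difference of 1.32 (SE 0.22, 95% interval 0.82 to 1.82), or 2.50-fold (1.77 to 3.53), had adjusted p = 0.109 in limma's test and exact permutation p = 0.0179.

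The probe sets 1420886_a_at and 1420011_s_at gave larger Xbp1 differences than the brightest one. The first averaged 13.02 ± 0.60 (SD, n = 5) in Sca1-MALT1 and 11.31 ± 0.16 (SD, n = 3) in WT cells, a difference of 1.71 (SE 0.32, adjusted p = 0.198 in limma's test over all probe sets). The second averaged 11.91 ± 0.60 (SD, n = 5) and 10.12 ± 0.15 (SD, n = 3), a difference of 1.79 (SE 0.32, adjusted p = 0.171 in limma's test). In all 3 sets Sca1-MALT1 replicate 1 was highest and replicates 2 and 3 were the lowest of their group. The dim set 1420012_at read 7.93, 7.40, 7.30, 8.79 and 8.36 on Sca1-MALT1 replicates 1 to 5, against 7.49, 7.34 and 7.18 on the WT arrays. Here replicate 4 was highest and replicates 2 and 3 lay within the WT range. The difference was 0.62 (SE 0.34, adjusted p = 0.618 in limma's test, exact permutation p = 0.179).

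Ell2, the elongation factor of antibody secretion, was separated in its bright probe set and not in its dim one. The bright set, 1450744_at, read 12.52, 11.14, 11.59, 12.17 and 12.23 on Sca1-MALT1 replicates 1 to 5, against 9.44, 10.39 and 10.51 on WT replicates 1 to 3. The order of the Sca1-MALT1 arrays had replicate 1 at the top and replicate 2 at the bottom, and the gap to the highest WT array was 0.64. Means of 11.93 ± 0.55 (SD, n = 5) and 10.11 ± 0.58 (SD, n = 3) gave a difference of 1.82 (SE 0.36, 95% interval 0.996 to 2.64), or 3.52-fold (1.99 to 6.22). It had adjusted p = 0.187 in limma's test and exact permutation p = 0.0179. The dim set, 1458569_at, read 4.12 to 4.40 on Sca1-MALT1 and 4.09 to 4.43 on WT arrays, below the array medians, a difference of 0.03 (95% interval -0.26 to 0.31, exact permutation p = 0.696). The mean of both Ell2 sets differed by 0.92 (adjusted p = 0.221 in limma's test).

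**Figure D2:**
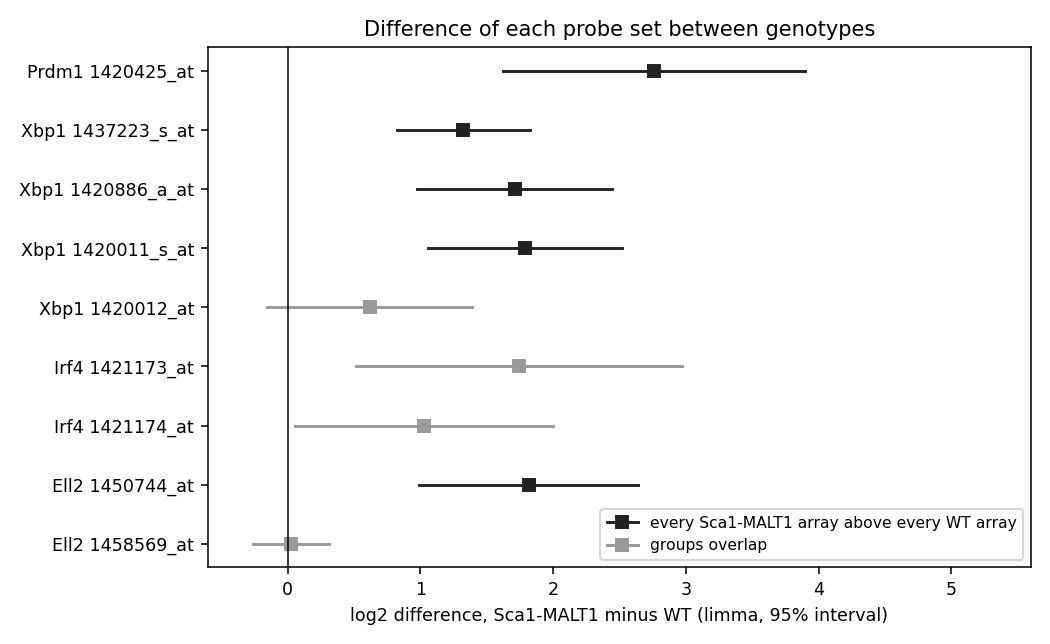
Log2 difference, Sca1-MALT1 minus WT, of each probe set with its 95% interval from the limma fit over all probe sets; black marks sets whose groups did not overlap and grey those that did. The interval excludes 0 for 7 of the 9 sets, and Ell2 1458569_at sits at 0.03.

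Leaving out each array in turn kept all 4 differences positive, and no adjusted p was under 0.05. Over these 8 fits Prdm1 differed by 2.24 to 3.15, Xbp1 by 1.21 to 1.43, Irf4 by 1.41 to 2.13 and Ell2 by 1.48 to 2.01. Their lowest adjusted p was 0.0566, for Xbp1 without Sca1-MALT1 replicate 2. Among the arrays of low Xist signal alone, 3 per genotype, the differences were 2.96 for Prdm1, 1.39 for Xbp1, 2.16 for Irf4 and 2.0 for Ell2. The adjusted p-values in limma's test were 0.127 for Prdm1, 0.0823 for Xbp1, 0.152 for Irf4 and 0.0986 for Ell2. No WT array had a high Xist signal, so no value could be had within the others.

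All 4 regulators were highest on Sca1-MALT1 replicate 1 and lowest, among the transgenic arrays, on replicate 2, while the order of the other arrays differed between genes. The mean of the 4 genes stood above its WT mean by 2.82 on replicate 1, 1.98 on replicate 4, 1.97 on replicate 5, 1.59 on replicate 3 and 1.18 on replicate 2. Likeness between genes was measured as the root mean square (RMS) difference of their log2 profiles over the 8 arrays, each centred on its own mean, so it is small for genes that share both shape and amplitude. It is a description, since all genes share the same arrays and genotype step. Of 18192 other genes, Ell2 was the 12th nearest to Irf4 (RMS 0.46) and the 9th nearest to Prdm1 (RMS 0.63), and Xbp1 was the 17th nearest to Ell2 (RMS 0.43). Prdm1, with its larger step, was 15720th from Xbp1, while Xbp1 was the 78th nearest to Prdm1 (RMS 0.93 either way). Xbp1 itself had an RMS of 0.70 about its own mean, so a gene of no change ranks nearer to it than Prdm1.

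The genes nearest to Xbp1 were Dnajb9, an ER co-chaperone (RMS 0.13), Aldh1a7, an aldehyde dehydrogenase (0.19), Sec24a, a coat protein of vesicles leaving the endoplasmic reticulum (0.20), Zfp9, a zinc finger protein (0.21), and Rapgef3, a Rap exchange factor (0.22). Dnajb9 read 12.24, 11.46, 11.64, 12 and 12.21 on Sca1-MALT1 replicates 1 to 5, against 10.81, 10.31 and 10.55 on the WT arrays. That profile followed Xbp1 in having replicates 2 and 3 lowest among the transgenic arrays. Sec24a rose by 1.39 (SE 0.15, adjusted p = 0.0189 in limma's test), and the call was lost without Sca1-MALT1 replicates 3 or 5 or any WT replicate (adjusted p 0.0663 to 0.128) and with the mean of its probe sets (difference 0.85, adjusted p = 0.0633).

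Nearest to Prdm1 were Jchain, the joining chain of polymeric antibodies (RMS 0.44), the kappa variable gene Igkv8-30 (0.48), Txndc5, an ER disulphide isomerase (0.50), Clic5, a chloride intracellular channel protein (0.52), and Edem1, a lectin-like protein of ER-associated degradation (0.54). Jchain read 14.72, 14.29, 14.58, 14.48 and 14.52 on Sca1-MALT1 replicates 1 to 5, against 11.18, 12.48 and 12.16 on the WT arrays, so that WT replicate 1 was lowest for both genes. Jchain rose by 2.58 (SE 0.27, adjusted p = 0.0163 in limma's test). It lost the call without Sca1-MALT1 replicates 1, 3 or 5 or WT replicate 3 (adjusted p 0.0537 to 0.0718). Igkv8-30 rose by 2.85 (SE 0.21, adjusted p = 0.00317 in limma's test).

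Nearest to Irf4 were Lrrn3, a leucine-rich repeat membrane protein (RMS 0.24), Ryr1, an intracellular calcium channel (0.25), Pqlc3 (0.37), Herpud1, a component of ER-associated degradation (0.37), and Pou2af1, a B cell coactivator of immunoglobulin genes (0.37). Nearest to Ell2 were Slc3a2, the heavy chain of an amino acid transporter (RMS 0.25), Herpud1 again (0.30), the vesicle coat gene Sec24d (0.34), the cytokine receptor gene Il13ra1 (0.35) and Kdelr3, a retrieval receptor of ER proteins (0.35). None of these 9 genes passed the adjusted threshold in limma's test, with differences of 1.18 for Pou2af1 to 2.27 for Il13ra1. Without Sca1-MALT1 replicate 2, Slc3a2 passed with a difference of 1.83 (adjusted p = 0.0399 in limma's test). That fit called 38 genes in all, against 16 with every array.

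**Figure D3:**
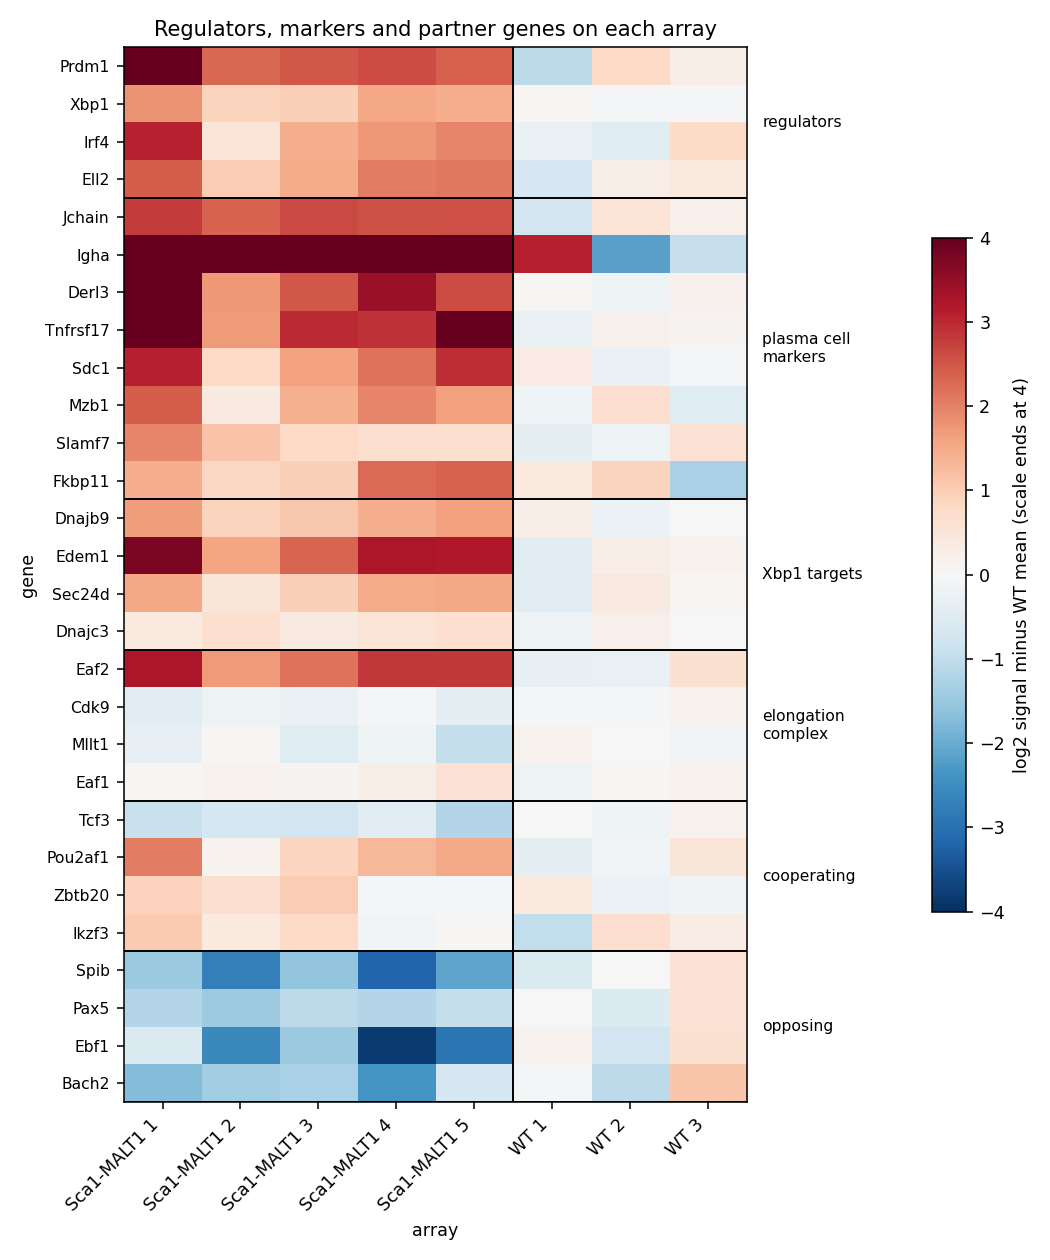
Log2 signal minus the WT mean for the 4 regulators, 8 plasma cell markers and the 4 genes of lowest unadjusted p from each of 4 lists of partner genes (rows), on the 5 Sca1-MALT1 and 3 WT arrays (columns). The colour scale ends at 4. Regulators, plasma cell markers and the named Xbp1 targets are red on the Sca1-MALT1 arrays. The 4 opposing B cell regulators shown are blue, and Eaf2 stands out within the elongation complex list.

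Of 17 listed targets of Xbp1, which serve protein folding, degradation and transport, 16 were measured, 15 with a higher and 1 with a lower mean in Sca1-MALT1, at a median of 0.41. None passed the threshold over all genes in limma's test, 6 had an unadjusted p under 0.05 (5.69% of all genes, as higher), and in 6 every Sca1-MALT1 array lay above every WT array (4.27% of all genes). Edem1 averaged 11.82 ± 0.87 (SD, n = 5) in Sca1-MALT1 and 9.0 ± 0.36 (SD, n = 3) in WT cells, a difference of 2.82 (SE 0.47, adjusted p = 0.109 in limma's test). Dnajb9 differed by 1.35 (SE 0.21, adjusted p = 0.0915), Sec24d by 1.20 (SE 0.29, adjusted p = 0.258) and the ER co-chaperone gene Dnajc3 by 0.52 (SE 0.13, adjusted p = 0.271). Without Sca1-MALT1 replicate 2, Edem1 passed (3.14, adjusted p = 0.0217) and so did Dnajb9 (1.47, adjusted p = 0.0459), in a fit that called 38 genes and not 16.

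Of 9 measured sensors and factors of the unfolded protein response, 8 had a higher mean in Sca1-MALT1, at a median of 0.14. None passed the threshold in limma's test, and 3 had an unadjusted p under 0.05, all higher, beside 5.69% of all genes as higher. Ern1, whose product splices the Xbp1 transcript, differed by 0.43 (SE 0.17, adjusted p = 0.446). The related membrane-bound factors Creb3l2 and Creb3 had differences of 1.11 for Creb3l2 (adjusted p = 0.302) and 0.62 for Creb3 (adjusted p = 0.295), with 1 of 4 probe sets of Creb3 of opposite sign. Atf6, a further sensor, differed by 0.61 (SE 0.29, adjusted p = 0.527).

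Among partners of Ell2, the ELL-associated factor gene Eaf2 stood apart from the rest of the list. It read 9.81, 8.26, 8.75, 9.41 and 9.38 on Sca1-MALT1 replicates 1 to 5, against 6.26, 6.27 and 7.18 on the WT arrays, with no overlap. The difference was 2.55 (SE 0.37, 5.87-fold, adjusted p = 0.0717 in limma's test). Eaf2 passed without Sca1-MALT1 replicate 2 (2.77, adjusted p = 0.0255), in the fit that called 38 genes and not 16. Of the 11 measured genes of the list 6 had higher and 5 lower means, at a median of 0.02. Only Eaf2 had an unadjusted p under 0.05, beside 10.2% of all genes in either direction. Cdk9, the kinase of the elongation complex, differed by -0.27 (adjusted p = 0.501), the further subunit gene Mllt1 by -0.38 (adjusted p = 0.595, probe sets of both signs) and Eaf1 by 0.22 (adjusted p = 0.675).

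Factors of polyadenylation, through which Ell2 acts on the heavy chain transcript, did not pass either. Of 11 measured, 4 had higher and 7 lower means in Sca1-MALT1, at a median of -0.10. An unadjusted p under 0.05 was found for 2, both lower, beside 10.2% of all genes in either direction. Cpsf2 and Cstf3, subunits of the cleavage and polyadenylation machinery, differed by -0.73 (SE 0.27, adjusted p = 0.409 in limma's test) and -0.34 (SE 0.13, adjusted p = 0.426), each with probe sets of both signs. Pcf11, a termination factor, differed by 0.51 (adjusted p = 0.491, probe sets of both signs), and Hnrnpll, a splicing regulator of plasma cells, by 0.18 (adjusted p = 0.649).

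Regulators that oppose the plasma cell state, or that Blimp-1 is known to repress, mostly had lower means. Of 11 measured, 10 were lower and 1 higher in Sca1-MALT1, at a median of -0.38, and none passed the threshold in limma's test. An unadjusted p under 0.05 was found for 6, all lower, beside 10.2% of all genes in either direction. The rest of the list, with the 1 higher gene among them, had none. Spib, an ETS factor of B cells, read 9.39, 8.13, 9.32, 7.72 and 8.77 on Sca1-MALT1 replicates 1 to 5, against 10.29, 10.89 and 11.47 on the WT arrays, with no overlap. Its difference was -2.21 (SE 0.43, adjusted p = 0.180). Pax5, which holds B cell identity, averaged 5.77 ± 0.19 (SD, n = 5) in Sca1-MALT1 and 6.93 ± 0.57 (SD, n = 3) in WT cells, a difference of -1.16 (SE 0.24, adjusted p = 0.204), with the Sca1-MALT1 mean below the array medians. Ebf1, its partner in B cell commitment, differed by -2.28 (SE 0.69, adjusted p = 0.339), with 1 of 5 probe sets of opposite sign, and Bach2, a repressor of Prdm1, by -1.51 (SE 0.51, adjusted p = 0.380).

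Factors that work beside the 4 regulators were split, with 5 of 9 higher and 4 lower, at a median of 0.08. None passed the threshold in limma's test. An unadjusted p under 0.05 was found for 2, 1 higher and 1 lower, beside 10.2% of all genes in either direction. Pou2af1 differed by 1.18 (SE 0.41, adjusted p = 0.383) and Tcf3, which encodes an E protein, by -0.78 (adjusted p = 0.224). Zbtb20, which encodes a zinc finger repressor that works in plasma cells, differed by 0.49 (adjusted p = 0.637) and the Ikaros family gene Ikzf3 by 0.43 (adjusted p = 0.775, probe sets of both signs, and -0.067 without WT replicate 1).

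Relatives of Irf4 and Prdm1 differed in both directions. Of 7 other interferon regulatory factor genes, 3 had higher and 4 lower means, between -0.51 for Irf5 (probe sets of both signs) and 0.29 for Irf1. Irf8, which opposes Irf4 in B cells, differed by -0.38 (SE 0.35, adjusted p = 0.771 in limma's test) and Irf9 by -0.30 (adjusted p = 0.734). Of 11 other genes with a PR domain, 6 had higher and 5 lower means, from -1.26 for Prdm16 to 0.31 for Prdm2, both with probe sets of both signs. Prdm15 differed by -0.28 (adjusted p = 0.500) and Prdm6 by 0.23 (adjusted p = 0.512). No gene of either family passed the threshold in limma's test or had an unadjusted p under 0.05 (10.2% of all genes in either direction). The differences between Irf4 or Prdm1 and these relatives were not tested.

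Subunits of NF-kB, which induces Irf4 in B cells, had small differences. Of 5 listed, 4 were measured (not Nfkb1), with 3 higher and 1 lower in Sca1-MALT1, at a median of 0.30. None passed the threshold in limma's test, and 2 had an unadjusted p under 0.05, both higher, beside 5.69% of all genes as higher. Rela differed by 0.44 (SE 0.14, adjusted p = 0.364 in limma's test) with no overlap between the groups, and Relb by 0.49 (SE 0.18, adjusted p = 0.404). Nfkb2 differed by 0.16 (adjusted p = 0.826, probe sets of both signs) and Rel by -0.11 (adjusted p = 0.895). The mouse Malt1 probe set differed by 0.49 (SE 0.22, adjusted p = 0.507).

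Markers of plasma cells had higher means in Sca1-MALT1 for all 8 genes, at a median of 2.36. All 8 had an unadjusted p under 0.05, beside 5.69% of all genes as higher, and only Jchain passed the threshold in limma's test. Their mean level was 10.43 to 11.97 on Sca1-MALT1 arrays and 8.38 to 8.88 on WT arrays, with no overlap. Among the Sca1-MALT1 arrays it was highest on replicate 1 and lowest on replicate 2, as was the mean of the regulators. The groups did not overlap in 6 of the 8, beside 4.27% of all genes, and did in Mzb1 and Fkbp11, both genes of the secretory apparatus. Igha, the constant chain of IgA, read 15.10 to 15.38 on Sca1-MALT1 arrays, close to the highest value of the table, 15.41, against 12.45, 7.17 and 8.42 on WT replicates 1 to 3 (adjusted p = 0.109). Derl3, a gene of ER-associated degradation, differed by 2.88 (adjusted p = 0.115). Tnfrsf17, the BCMA survival receptor, averaged 8.58 ± 1.31 (SD, n = 5) in Sca1-MALT1 and 5.21 ± 0.25 (SD, n = 3) in WT cells (adjusted p = 0.192), the WT mean lying below the array medians. Sdc1, the surface marker CD138, differed by 2.13 (SE 0.50, adjusted p = 0.253). The part of these cells in the regulators' differences was not tested.

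**Figure D4:**
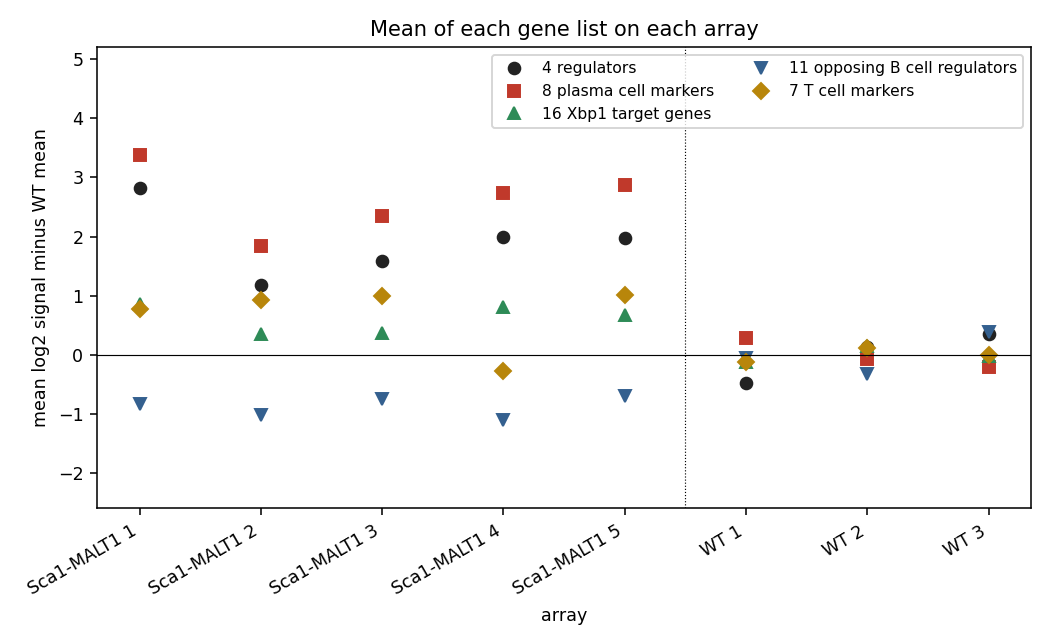
Mean log2 signal minus the WT mean on each array for the 4 regulators, 8 plasma cell markers, 16 Xbp1 target genes, 11 opposing B cell regulators and 7 T cell markers. Regulators and plasma cell markers lie above 1 on every Sca1-MALT1 array, highest on replicate 1 and lowest on replicate 2, while T cell markers lie below 0 on replicate 4.

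Other cells also express some of the 4 genes, among them activated T cells (Irf4, Prdm1) and dendritic cells (Irf4). T cell markers had higher means for 6 of 7 genes in Sca1-MALT1, and their mean level was 8.76 to 10.05 on Sca1-MALT1 and 8.90 to 9.15 on WT arrays. The T cell level was 8.76 on Sca1-MALT1 replicate 4 and 9.80 to 10.05 on the other Sca1-MALT1 arrays, above all WT arrays. Cd28, a T cell costimulatory receptor, differed by 1.69 with no overlap (adjusted p = 0.295 in limma's test), and Thy1, a T cell surface antigen, by 1.43 (adjusted p = 0.377). The NK cell markers (2 of 4 higher) had mean levels of 7.77 to 9.83 on Sca1-MALT1 and 8.45 to 9.38 on WT arrays. For markers of monocytes, macrophages and dendritic cells (1 of 6 higher) the levels were 9.08 to 10.68 and 9.92 to 10.96, and for plasmacytoid dendritic cells (1 of 5 higher) 7.88 to 8.46 and 8.42 to 8.75. In each of these lists the groups overlapped and no gene passed the threshold in limma's test.

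Early B cell markers went the other way, with all 5 lower in Sca1-MALT1 and mean levels of 5.83 to 7.40 against 9.85 to 11.12 in WT. The surrogate light chain genes Igll1 and Vpreb1 and the recombinase genes Rag1 and Rag2 passed as lower in limma's test, as did 0.044% of all genes. On the log2 scale Igll1 fell by 3.92 (adjusted p = 0.00228 in limma's test), with 1 of its 2 probe sets of opposite sign. In the same test Vpreb1 fell by 5.55 and Rag1 fell by 5.88 (adjusted p = 0.00596 for both), and Rag2 fell by 2.46 (adjusted p = 0.0374). The Sca1-MALT1 means of Vpreb1, Rag1 and Rag2 (5.78, 5.05 and 5.31) lay below the array medians and were not shown to be above background, so these sizes are uncertain. Rag2 lost the call in 7 of the 8 fits without 1 array, all but that without WT replicate 2 (adjusted p 0.0508 to 0.131). Mature B cell markers (1 of 6 higher) had levels of 8.07 to 9.58 on Sca1-MALT1 and 9.20 to 9.83 on WT arrays. Erythroid markers were all higher, with levels of 9.88 to 10.71 against 8.78 to 9.32 in WT and no overlap, and none of the 5 passed the threshold. Levels of neutrophil markers (1 of 5 higher) were 10.20 to 14.21 on Sca1-MALT1 and 11.99 to 12.88 on WT arrays, and those of megakaryocyte markers (2 of 4 higher) 7.62 to 8.59 and 8.00 to 8.25. The part of these cells in the regulators' differences was not tested.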

How the data were processed

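The deposited table held log2 values of 1-colour Affymetrix arrays, made by the authors with RMA per the submitters' processing notes. Which arrays entered the RMA run, and its version, is unknown here. Values of 2.73 to 15.41 gave the log2 scale. RNA had been linearly amplified, per the labels' protocols.

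No further normalization or filter on dim genes was applied. Of 45101 probe sets, 64 controls were left out, 34945 matched 1 gene symbol and 932 more than 1, while 9160 had no entry in the platform annotation and carry no name. Current symbols came from a RefSeq table (GRCm38.p6) by Entrez identifier. Each gene took its probe set of highest mean, giving 18193 genes. Genotype was fitted with limma 3.58.1 (lmFit, eBayes) in R 4.3.3, with Benjamini-Hochberg adjustment over all genes or all 45037 probe sets, a threshold of 0.05 and two-sided tests. Differences are Sca1-MALT1 minus WT. The exact permutation test used absolute differences of group means, on 9 probe sets and with unadjusted p-values. Scripts were tested on simulated data. The number of arrays limits the precision.

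Named genes were, beyond the 4 regulators, Jchain and Malt1, up to 4 genes of lowest unadjusted p per list of partner genes and the 5 most alike per regulator. Early B cell, plasma cell and other markers are named beyond that rule, chosen after their values were seen. The 4 genes and the 20 lists were chosen with earlier results of these data known. The alternatives were quantile normalization, median centring, 2 filters on dim genes, probe set handling, a robust trend, array weights, the replicate number as a block, an Xist term and leaving out each array; the arrays of low Xist signal alone were added after seeing the data.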

Additional observations from a re-analysis of the deposited data

Results flagged for a closer look

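A search for outlying arrays covered 65 sets of 5 Sca1-MALT1 values, from the 9 probe sets and 56 of the named genes. Of the cell type markers, the search took in only Jchain, Igll1, Vpreb1, Rag1 and Rag2. Of the 65 sets, 2 held an array far from the other 4 by Dixon's 95% limit for the gap over the range. Chance gives about 1 in 20. The share flagged is thus not above that of chance. Prdm1 (1420425_at) read 11.31 on Sca1-MALT1 replicate 1, with the nearest array at 9.94 and a gap of 0.81 of the range. Without that array the Prdm1 difference was 2.45 (adjusted p = 0.171 in limma's test). Cpsf2, a polyadenylation factor, read 8.16 on Sca1-MALT1 replicate 5, with the nearest array at 9.0 and a gap of 0.78 of the range.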

How the results depend on the processing

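None of the 4 regulators changed direction or passed the adjusted threshold under the 19 alternatives run for each. Over them Prdm1 ranged from 2.24 to 3.15 (adjusted p 0.0659 to 0.328), Xbp1 from 1.21 to 1.43 (0.0566 to 0.298), Irf4 from 1.38 to 2.16 (0.152 to 0.673) and Ell2 from 0.92 to 2.01 (0.0823 to 0.407). The count of called genes, 16 in the fit reported, was 27 with only genes above the array median in at least 3 arrays. It was 28 with array weights, 29 with an Xist term and 59 on the arrays of low Xist signal alone. With 1 array left out it ranged from 8 (without Sca1-MALT1 replicate 3) to 38 (without Sca1-MALT1 replicate 2). When each of the 45037 probe sets was tested on its own, 27 probe sets were called, and 8 to 56 with 1 array left out. The filters test fewer genes, and the cause of the other shifts was not tested.

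Replicate numbers 1 to 3 occur in both genotypes. Deviations from the group means correlated at -0.22, -0.038 and 0.0064 within the same number, and no array correlated best with its own number. Pairing by number was thus not seen, but so few arrays cannot exclude it, since deviations within a group cancel. With the replicate number as a block, limma called 0 genes (2034 with an unadjusted p under 0.05) and 1 probe set, and the differences were 2.93 for Prdm1, 1.21 for Xbp1, 1.68 for Irf4 and 1.64 for Ell2 (adjusted p 0.328, 0.267, 0.414 and 0.380).

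The alternatives were also run for 56 other named genes and the 5 other probe sets of the regulators. Of the cell type markers, these held only Jchain, Igll1, Vpreb1, Rag1 and Rag2. Of the 1117 values, 1076 kept their direction and their side of the threshold, 27 lost the call, 7 gained it and 7 changed sign. Prdm2 was -0.068 with the mean of its probe sets. The others changed sign without 1 array: Ell2 1458569_at ranged from -0.034 to 0.14 (below 0 without Sca1-MALT1 replicate 1, WT replicate 1 or WT replicate 2), Ikzf3 from -0.067 to 0.77 and Nfkb2 from -0.075 to 0.29 (both below 0 without WT replicate 1), and Rel from -0.21 to 0.062 (above 0 without WT replicate 3).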

Other observations

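Within the WT arrays the mean of the regulators and that of the plasma cell markers did not share an order. The mean of the 4 regulators was 9.27, 9.88 and 10.09 on WT replicates 1 to 3, while that of the 8 markers was 8.88, 8.53 and 8.38. The marker mean on WT replicate 1 leans on Igha, and no mean without Igha was taken. Among the WT arrays Igha and Sdc1 were highest on replicate 1, while Jchain, Tnfrsf17 and Slamf7 were lowest there. WT replicate 1 had the lowest Prdm1 (6.29) and the lowest Jchain (11.18) of all arrays, and its Igha signal was 12.45, against 7.17 and 8.42 on WT replicates 2 and 3. Slamf7, a surface receptor of plasma cells, was 10.38 on Sca1-MALT1 replicate 1 and 9.08 to 9.57 on replicates 2 to 5, against 8.04 to 8.98 in WT.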
